A study of Mus musculus with 9 samples.

Results

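Macrophage and osteoclast-lineage genes were examined in cultured cells of the newborn mouse skull roof. The set held 34 genes, chosen by name as genes of leukocytes, of macrophages and of osteoclasts, of 25860 genes in the deposited table. Of these, 33 were found by symbol, and Spi1 was found by its Ensembl identifier under its older symbol Sfpi1. Membership went by gene name, with no threshold on a measured value, though earlier results of these data were known when the set was chosen. By role they fell into 8 surface and signalling genes shared by leukocytes, 9 receptors and adaptors, 1 transcription factor, 12 genes of the lysosome, complement and other effectors, and 4 osteoclast genes.

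The study compared calvarial cells labelled IRE1KO (n = 5 libraries) with cells labelled WT (n = 4 libraries), measured by RNA sequencing. Cells of both groups carried Osx1-Cre, a Cre recombinase transgene driven by the promoter of Sp7, the gene for osterix, which bone-forming cells and their precursors express. They were sorted by flow cytometry, then grown in 10% fetal bovine serum to 90% confluence before RNA was taken. Between 3 and 5 pups, 2 to 4 days old, were pooled for each library. IRE1 is a sensor of unfolded proteins in the endoplasmic reticulum, encoded by Ern1; the kind of Ern1 allele in the IRE1KO cells is not given in the sources used here, nor are the sex, litter, sort date and culture day of the pools.

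Macrophages and osteoclasts belong to the blood-forming lineage, unlike the mesenchymal osteoblast. Both descend from myeloid precursors that express the receptor CSF1R and the transcription factor PU.1, encoded by Spi1. The ligand CSF1, made by stromal cells and osteoblasts among others, keeps these precursors alive, and RANKL, encoded by Tnfsf11, drives them to fuse into osteoclasts, the large cells that dissolve bone. Resident macrophages of bone take up dead cells and debris, and carry Fc receptors, complement C1q and a large set of lysosomal enzymes. PU.1 is an ETS-family factor, and it prefers DNA sites with an extended purine-rich core.

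Promoters of 24 of the 34 genes could be matched, with 32 gene starts among them, in the RefSeq set on GRCm38.p6, which spans 250 bases before to 50 bases after each start. The core AGGAAGT was searched on both strands. It was present in 11 of the 32 starts (34.4%), belonging to 10 genes, against 9.35% of all 32851 promoters of the same length. The shorter core GGAAGT, which lies within it, was present in 16 of 32 (50%) against 23.8%, and the longer GAGGAAGT in 5 of 32 (15.6%) against 3.20%. These letters are shared by other ETS factors, and a match is not a measured binding site. The motifs were chosen with knowledge of the members' shared lineage, and no test was made of these shares. Below are 6 of these promoters, shown 5′ to 3′ on each gene's own strand. They were picked among the genes that hold the core: Ctss, C1qb, C1qc and Lyz2, and also Mrc1 and Cd53, whose shares of the set varied more than those 4 beyond counting error. Capitals mark ACTTCCT, the core as read on the opposite strand. The windows are chr3:95526536-95526835 on the plus strand for Ctss, chr4:136886151-136886450 on the minus strand for C1qb, chr4:136892865-136893164 on the minus strand for C1qc, chr10:117282223-117282522 on the minus strand for Lyz2, chr2:14229164-14229463 on the plus strand for Mrc1 and chr3:106790100-106790399 on the minus strand for Cd53.
Ctss: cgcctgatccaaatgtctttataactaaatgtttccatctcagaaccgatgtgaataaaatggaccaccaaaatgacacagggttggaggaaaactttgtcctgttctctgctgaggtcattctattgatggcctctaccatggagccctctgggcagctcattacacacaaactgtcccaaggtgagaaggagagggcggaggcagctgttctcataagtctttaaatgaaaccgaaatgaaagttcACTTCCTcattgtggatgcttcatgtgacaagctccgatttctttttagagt
C1qb: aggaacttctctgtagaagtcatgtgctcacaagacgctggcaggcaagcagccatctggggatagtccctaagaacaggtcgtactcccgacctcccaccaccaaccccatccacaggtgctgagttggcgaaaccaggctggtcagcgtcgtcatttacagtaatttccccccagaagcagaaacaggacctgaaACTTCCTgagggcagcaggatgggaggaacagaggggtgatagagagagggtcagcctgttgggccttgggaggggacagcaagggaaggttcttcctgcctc
C1qc: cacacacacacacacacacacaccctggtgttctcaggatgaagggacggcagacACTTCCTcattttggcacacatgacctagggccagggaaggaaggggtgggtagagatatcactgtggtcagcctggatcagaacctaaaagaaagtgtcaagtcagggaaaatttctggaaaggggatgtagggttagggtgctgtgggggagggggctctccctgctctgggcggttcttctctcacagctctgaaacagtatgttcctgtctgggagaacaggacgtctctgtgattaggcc
Lyz2: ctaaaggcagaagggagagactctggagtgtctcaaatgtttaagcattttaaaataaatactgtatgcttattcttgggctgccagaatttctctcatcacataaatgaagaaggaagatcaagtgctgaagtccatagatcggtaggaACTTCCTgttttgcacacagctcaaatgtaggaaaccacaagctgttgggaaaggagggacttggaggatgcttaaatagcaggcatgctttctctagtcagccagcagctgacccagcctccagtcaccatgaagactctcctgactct
Mrc1: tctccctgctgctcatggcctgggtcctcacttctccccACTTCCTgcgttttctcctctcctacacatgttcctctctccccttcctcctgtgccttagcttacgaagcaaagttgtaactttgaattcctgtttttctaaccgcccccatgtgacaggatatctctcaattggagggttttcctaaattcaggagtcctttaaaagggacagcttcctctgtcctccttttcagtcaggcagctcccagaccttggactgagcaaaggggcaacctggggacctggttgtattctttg
Cd53: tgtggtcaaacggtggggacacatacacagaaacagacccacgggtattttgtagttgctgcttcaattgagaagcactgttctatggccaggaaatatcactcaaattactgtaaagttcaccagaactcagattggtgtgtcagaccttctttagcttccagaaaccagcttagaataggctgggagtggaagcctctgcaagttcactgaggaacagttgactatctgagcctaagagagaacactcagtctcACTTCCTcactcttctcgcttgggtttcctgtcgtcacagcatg
The match began 2 bases before the start of Ctss, 53 before that of C1qb, 100 before that of Lyz2, 195 before that of C1qc and 211 before that of Mrc1, and 6 bases after that of Cd53.

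Library totals ranged from 18784636 to 22028075 counts, and levels are given as CPM, in which each count is divided by its library's total and put on a common scale. The targeted gene Ern1 was at a mean of 52.7 ± 2.53 CPM (SD) over the 5 IRE1KO libraries and 47.5 ± 5.34 CPM over the 4 WT libraries, with a log2 fold change of 0.17 ± 0.0764 and adjusted p = 0.306 by the edgeR quasi-likelihood test (Benjamini-Hochberg adjusted), so its summed count did not separate the labelled groups. All 13 mitochondrially encoded genes of the table were listed at 0 in every library. Of the 13712 genes that passed the filter on low counts, 87 differed between the groups, 35 higher and 52 lower in IRE1KO.

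RNA of the lineage was present in every library and was scarce. At least 1 count was found for 32 of the 34 genes, and 31 had counts in all 9 libraries. The filter on low counts was passed by 30 of the 34, all but Cd86, Dcstamp, Ocstamp and Calcr. Together they took 0.0162% to 0.0570% of a library's counts, which is 3107 to 12546 counts. Their summed level was 456.6, 468.1, 262.8, 569.5 and 280.8 CPM in IRE1KO libraries 1 to 5 and 356.6, 162.0, 552.2 and 501.7 CPM in WT libraries 1 to 4. The highest library, IRE1KO 4, and the next, WT 3, came from different groups, as did the lowest, WT 2, and the next above it, IRE1KO 3. The groups therefore overlapped over most of their range, with a mean of 407.6 ± 131.7 CPM (SD) over the 5 IRE1KO libraries and 393.1 ± 175.0 CPM over the 4 WT libraries. In bulk RNA, fewer cells of a lineage and less RNA per cell cannot be told apart.

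**Figure D1:**
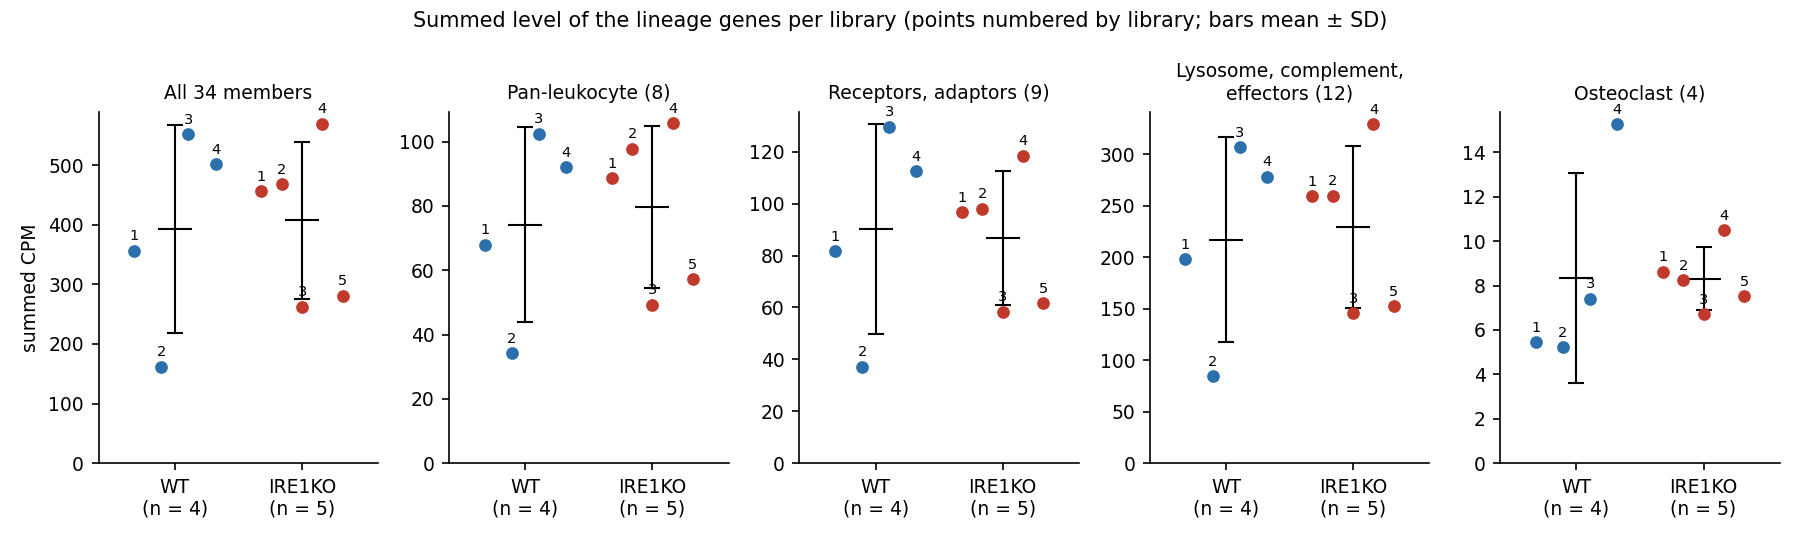
Summed CPM of all 34 genes and of the role groups in each library, with points numbered by library and bars for mean ± SD (n = 4 WT, n = 5 IRE1KO). The points of both groups overlap in every panel, and WT library 2 is lowest in each.

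The spread between libraries of the same genotype was wide. The summed level differed 2.17-fold between the highest and the lowest IRE1KO library and 3.41-fold among the WT libraries, whose total counts differed 1.03-fold. Within IRE1KO, library 4 also had the largest total count and library 3 the smallest, 1.17-fold apart, and the part of depth in this order was not tested. Among single genes, the highest library stood above the lowest by a median of 4.03-fold over the 30 tested members, against 1.36-fold over all tested genes. A ratio of at least the members' median was found in 6.86% of tested genes. Lyz2, encoding lysozyme M, held 25.1% to 28.6% of the members' counts, and the order of the libraries was the same without it.

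The same libraries were high or low for nearly every gene. WT library 2 was the lowest of the 9 in 27 of the 30 tested members, and IRE1KO library 4 the highest in 15. Within WT, libraries 1 and 2 were both below libraries 3 and 4 in 30 of 30 members. Within IRE1KO, libraries 3 and 5 were both below the other 3 in 29 of 30, Cd14 being the exception. These counts describe an order that was noticed in the data. Pools, sorts and cultures are shared by all genes of a library, so the members do not repeat the observation independently. Nor was the nearness of IRE1KO libraries 3 and 5 particular to the set. Over all genes with enough counts they were the closest pair, with a variance 1.86 times sampling noise. The other IRE1KO pairs were at 3.88 to 9.58 times and the WT pairs at 14.7 to 106.6 times.

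**Figure D2:**
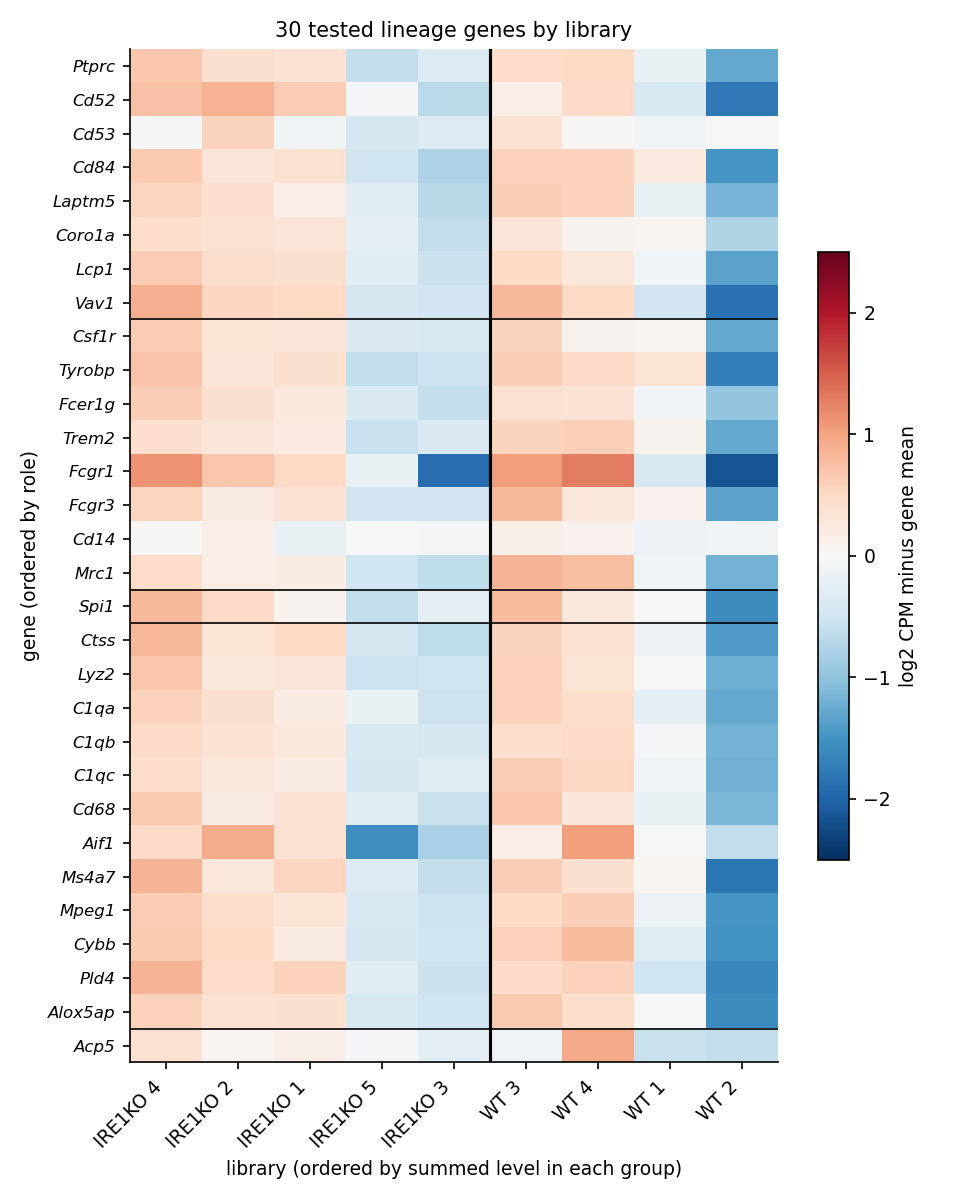
Level of the 30 tested members in each library as log2 CPM minus the gene's own mean, with rows grouped by role and libraries ordered by summed level within each genotype. Nearly all rows darken to blue in WT library 2 and in IRE1KO libraries 3 and 5, while Cd14 stays close to its mean throughout.

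Genes shared by leukocytes were led in level by Lcp1, which encodes the actin-bundling protein L-plastin. It was at 38.9, 39.8, 20.5, 45.7 and 24.3 CPM in IRE1KO libraries 1 to 5 and 28.3, 11.6, 41.9 and 35.3 CPM in WT libraries 1 to 4. The libraries above 35 CPM were IRE1KO 1, 2 and 4 and WT 3 and 4, and the groups overlapped. Ptprc, encoding the pan-leukocyte phosphatase CD45, was at 7.61, 7.83, 4.68, 9.44 and 3.93 CPM in IRE1KO libraries 1 to 5 and 5.25, 2.45, 8.19 and 8.36 CPM in WT libraries 1 to 4. Again WT library 2 was the lowest and IRE1KO library 4 the highest, with the groups overlapping. Laptm5, a lysosomal membrane protein of blood cells, ranged over 6.46 to 22.1 CPM. Cd84, a receptor of the SLAM family, ranged over 1.98 to 8.58 CPM, Coro1a, an actin regulator, over 2.45 to 5.58 CPM, and Vav1, a signalling protein of blood cells, over 0.730 to 4.95 CPM. All 4 were lowest in WT library 2, as were Lcp1 and Ptprc. The small surface glycoprotein gene Cd52 was at 2.51, 2.93, 1.01, 2.68 and 1.56 CPM in IRE1KO libraries 1 to 5 and 1.21, 0.469, 1.81 and 2.25 CPM in WT libraries 1 to 4. It was low in all libraries, its groups overlapped, and its log2 fold change of 0.60 ± 0.438 was the largest of the 30, with adjusted p = 0.526 by the edgeR quasi-likelihood test (Benjamini-Hochberg adjusted).

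Among receptors and adaptors, Csf1r, encoding the CSF1 receptor on which macrophages depend (GRCm38, chr18:61100598-61132149), was found in every library. It was at 29.7, 30.2, 18.5, 37.4 and 18.7 CPM in IRE1KO libraries 1 to 5 and 25.0, 9.85, 35.4 and 25.5 CPM in WT libraries 1 to 4. IRE1KO library 4 was highest and WT library 2 lowest, and the groups overlapped. Tyrobp encodes DAP12, the signalling adaptor of TREM2. It was at 7.03, 6.62, 3.73, 8.76 and 3.46 CPM in IRE1KO libraries 1 to 5 and 6.72, 1.62, 8.19 and 7.42 CPM in WT libraries 1 to 4, a spread of 5.42-fold that crossed both groups. Fcer1g, the common Fc receptor gamma chain, ranged over 2.76 to 8.44 CPM. Trem2, a lipid-sensing receptor of macrophages and osteoclast precursors, ranged over 1.51 to 5.54 CPM, and Fcgr3, a low-affinity IgG receptor, over 2.50 to 11.04 CPM. All 3 were lowest in WT library 2. The high-affinity IgG receptor gene Fcgr1 was at 1.98, 2.27, 0.373, 3.04 and 1.23 CPM in IRE1KO libraries 1 to 5 and 1.06, 0.313, 2.90 and 3.40 CPM in WT libraries 1 to 4. With 6 to 67 counts a library it had the widest ratio of the set, 10.9-fold, and the largest standard error. Mrc1, encoding the mannose receptor CD206 of tissue macrophages, was at 33.1, 32.8, 18.7, 40.3 and 20.7 CPM in IRE1KO libraries 1 to 5 and 27.2, 12.8, 52.6 and 49.3 CPM in WT libraries 1 to 4. WT libraries 3 and 4 were the highest of the 9 and WT library 2 the lowest, so the WT values enclosed those of IRE1KO.

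Spi1, the only transcription factor of the set, was at 3.28, 4.29, 2.61, 5.40 and 2.04 CPM in IRE1KO libraries 1 to 5 and 3.13, 1.04, 5.39 and 3.71 CPM in WT libraries 1 to 4. It was low, with 20 to 119 counts a library, but had a Spearman coefficient of 0.967 with the summed level of the other members over the 9 libraries, and its groups overlapped.

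Lysosomal, complement and effector genes made up the largest role group, with a summed level of 229.4 ± 78.6 CPM (SD) over the 5 IRE1KO libraries and 217.0 ± 99.8 CPM over the 4 WT libraries. Lyz2 was at 123.6, 123.4, 71.7, 162.3 and 70.5 CPM in IRE1KO libraries 1 to 5 and 102.1, 43.5, 150.7 and 128.3 CPM in WT libraries 1 to 4. IRE1KO library 4 and WT library 3 were the highest and WT library 2 the lowest, so the range within each genotype covered the range of the other in large part. Ctss, encoding the lysosomal protease cathepsin S, was at 23.0, 20.7, 10.5, 29.1 and 12.1 CPM in IRE1KO libraries 1 to 5 and 15.1, 6.15, 24.0 and 21.2 CPM in WT libraries 1 to 4. Complement C1q is built from 3 chains, whose genes C1qa, C1qb and C1qc are neighbours on chromosome 4. C1qa was at 10.5, 12.1, 6.39, 13.5 and 8.10 CPM in IRE1KO libraries 1 to 5 and 7.73, 3.75, 13.5 and 12.3 CPM in WT libraries 1 to 4. C1qb was at 10.1, 10.8, 6.28, 11.8 and 6.49 CPM in IRE1KO libraries 1 to 5 and 8.24, 3.70, 11.5 and 11.8 CPM in WT libraries 1 to 4. C1qc was at 10.6, 11.3, 7.51, 12.6 and 6.77 CPM in IRE1KO libraries 1 to 5 and 8.54, 4.01, 14.2 and 13.2 CPM in WT libraries 1 to 4. All 3 chains were lowest in WT library 2, were below 9 CPM in IRE1KO libraries 3 and 5 and WT library 1, and were above 10 CPM in the other 5. Cd68, a lysosomal glycoprotein of macrophages, ranged over 6.15 to 21.6 CPM, and Mpeg1, a pore-forming protein of phagocytes, over 9.12 to 39.4 CPM. Cybb, the catalytic subunit of the phagocyte NADPH oxidase, ranged over 2.45 to 12.1 CPM, and Alox5ap, which serves leukotriene synthesis, over 1.82 to 8.56 CPM. Ms4a7, a membrane-spanning protein of macrophages, ranged over 2.03 to 12.7 CPM, and Pld4, an endolysosomal nuclease, over 1.25 to 6.99 CPM. These 6 genes were lowest in WT library 2. Aif1, encoding the actin-binding protein IBA1, was near the lower end of measurement, at 0.189 to 1.15 CPM, and was lowest in IRE1KO library 5.

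Per kilobase of exon, Lyz2 stood far above the others, with a mean of 82.4 CPM per kb over the 9 libraries. Ctss followed at 13.2, Cd68 at 11.5, C1qa at 9.38 and Tyrobp at 8.92 CPM per kb. The median of the 30 tested members was 3.98 CPM per kb and the lowest was Ptprc, at 0.350. Exon lengths came from GENCODE M21, which need not be the annotation used for counting.

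Of the 4 osteoclast genes in the set, all but Acp5 were absent or nearly so. Dcstamp, which encodes a membrane protein needed for osteoclast fusion, and Calcr, the calcitonin receptor, had 0 counts in all 9 libraries. Over 179872177 counts this allows a level of up to 0.0167 CPM, and within a single library a count of 3 equals 0.136 to 0.160 CPM. Ocstamp, which also encodes a fusion protein, had 2, 2, 2, 9 and 0 counts in IRE1KO libraries 1 to 5 and 4, 2, 3 and 4 counts in WT libraries 1 to 4. Pooled, that is 0.146 CPM in IRE1KO (95% exact Poisson interval 0.0819 to 0.241) and 0.168 CPM in WT (0.0894 to 0.287), intervals that cover counting error only. Acp5, encoding tartrate-resistant acid phosphatase, an enzyme of osteoclasts that macrophages also make, was the sole gene of this group with a sizeable level. It was at 8.53, 8.13, 6.60, 10.1 and 7.53 CPM in IRE1KO libraries 1 to 5 and 5.25, 5.11, 7.26 and 15.1 CPM in WT libraries 1 to 4. WT library 4 was the highest and WT libraries 1 and 2 the lowest, with all IRE1KO values between. The set's own osteoclast genes thus differed: Dcstamp and Calcr were not detectable at this depth, while Acp5 was present in every library. The macrophage genes Csf1r, C1qa and Cd68 were also present in every library. Outside the set, 23 of 24 further genes used by osteoclasts had counts in every library, and 21 had more than 3 in each. Which cells these counts came from was not tested. Whether any osteoclasts were in the cultures was not tested. Cd86, a costimulatory ligand, was also scarce, with 9, 9, 6, 9 and 8 counts in IRE1KO libraries 1 to 5 and 8, 3, 6 and 2 in WT libraries 1 to 4, and it was not tested.

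The members varied together across libraries, in near proportion. For each tested member, its level over the 9 libraries was set against the summed level of the other members. The Spearman correlation coefficient had a median of 0.95 and was at least 0.9 in 25 of 30, with C1qa and Mpeg1 highest at 0.983. Among the 13682 tested genes outside the set, the Spearman coefficient against the summed members was at least 0.9 in 0.789% and had a median of −0.017. Pearson's r of log2 levels had a median of 0.978 over the members, and of 0.939 with the 2 libraries farthest from the median left out. These correlations are descriptions over 9 points that share libraries, pools and total counts. The members were chosen by name but with earlier results of these data known, so genes outside the set are not an independent yardstick. In an edgeR fit with genotype and the log2 level of the other members as terms, the slope passed an adjusted p of 0.05 in 26 of 30 members, beside 0.948% of all tested genes, and its median was 1.05, where 1 is strict proportion. The 4 that did not pass were Cd53, Cd14, Aif1 and Acp5. This fit was chosen after the shared order of the libraries had been seen.

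Once the shared level was taken out, the spread left was smaller, and in some members it was near the size of counting error. Against an expectation set by library size alone, the chi-square per degree of freedom had a median of 19.3 over the tested members, where 1 is pure counting error, and 4.45 over all tested genes. Against an expectation in proportion to the other members the median fell to 2.11, and it was below 2 in 13 of 30. Abundant members stayed above counting error, with 8.10 for Lyz2, 16.7 for Mrc1 and 5.00 for Csf1r, and Cd53 was highest at 24.9. At the same relative spread this measure is smaller for genes with fewer counts. Ptprc at 0.692, Trem2 at 0.659, C1qb at 0.581, Fcer1g at 0.549 and Alox5ap at 0.521 varied no more than counting error about a constant share.

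Few members kept a course of their own. Cd14, the lipopolysaccharide co-receptor, was at 5.30, 6.72, 5.80, 6.08 and 5.92 CPM in IRE1KO libraries 1 to 5 and 5.41, 5.73, 6.64 and 6.43 CPM in WT libraries 1 to 4. It varied 1.27-fold in all, its spread about library size alone was that of counting error (0.855 per degree of freedom), and its Spearman coefficient with the other members was 0.583. Cd53, a tetraspanin of leukocytes, was at 7.47, 11.8, 6.44, 7.90 and 6.06 CPM in IRE1KO libraries 1 to 5 and 7.73, 8.03, 10.5 and 8.26 CPM in WT libraries 1 to 4. Its Spearman coefficient was 0.517, the lowest of the 30 tested members, and WT library 2, lowest for nearly all others, stood between WT library 1 and WT library 4 for Cd53. Acp5 had a Spearman coefficient of 0.717, Aif1 of 0.750 and Cd52 of 0.783. Per 1000 counts of the tested members, Cd14 made up 11.6, 14.4, 22.1, 10.7 and 21.1 in IRE1KO libraries 1 to 5 and 15.2, 35.5, 12.03 and 12.8 in WT libraries 1 to 4. Its share was therefore highest where the set was lowest. Which cells the RNA of Cd14, Cd53 and Acp5 came from was not tested.

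**Figure D3:**
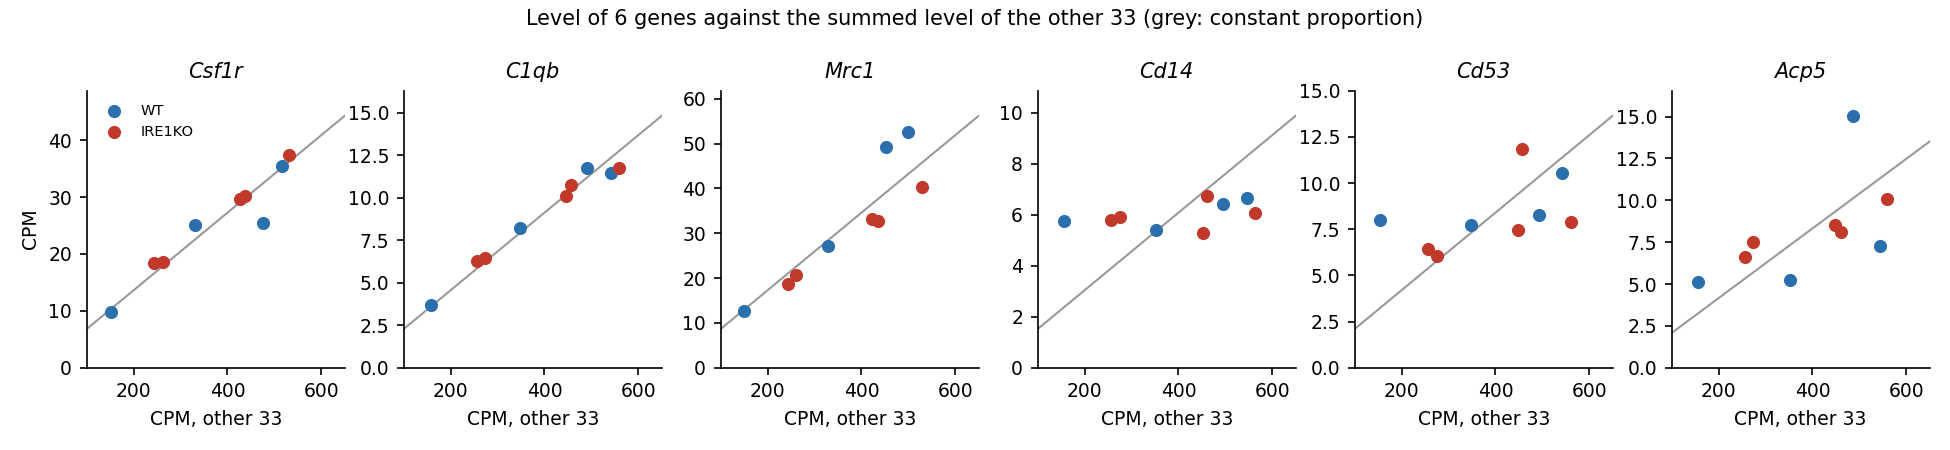
CPM of 6 members (vertical axes) against the summed CPM of the other 33 (horizontal axes) in each library, blue for WT and red for IRE1KO, with a grey line for a constant proportion. Csf1r and C1qb follow the line, Mrc1 lies above it in WT libraries 3 and 4, Cd14 stays near 6 CPM at every summed level, and Cd53 and Acp5 scatter.

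No tested member passed the comparison of IRE1KO with WT. By the edgeR quasi-likelihood test (Benjamini-Hochberg adjusted) over all tested genes, 0 of 30 members passed the threshold of 0.05, beside 0.634% of all tested genes (0.255% higher and 0.379% lower in IRE1KO). At an unadjusted p below 0.05 the count was also 0 of 30, where 16.5% of all tested genes passed, and 0 of 30 had levels that did not overlap between the groups, where 6.6% of all tested genes did. DESeq2 called 0 members beside 3.77% of all genes it tested, and limma voom 0 beside 0.117%. The smallest adjusted p of a member was 0.526. Log2 fold changes ran from −0.26 for Mrc1 to 0.60 for Cd52 with a median of 0.080, 22 above 0 and 8 below, and the median over all tested genes was −0.0050.

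The precision of this comparison was limited by the spread between libraries. Standard errors of the members' log2 fold changes had a median of 0.377, against 0.0852 over all tested genes. For Lyz2, the most abundant member, the log2 fold change was 0.078 ± 0.365 with adjusted p = 0.942 by edgeR, and the 95% interval of the fold ran from 0.597 to 1.87. For Csf1r it was 0.19 ± 0.342 with adjusted p = 0.818 by edgeR, and the interval of the log2 fold change ran from −0.58 to 0.96. Cd14, at a mean of 5.97 ± 0.513 CPM (SD) over the 5 IRE1KO libraries and 6.05 ± 0.578 CPM over the 4 WT libraries, was bounded most closely, with a log2 fold change of 0.0014 ± 0.101, adjusted p = 0.997 by edgeR and an interval from −0.23 to 0.23. These intervals give the differences compatible with the data, gene by gene. They are not limits of detection, since larger differences could also miss the adjusted threshold. The sign of the members' median rested on single libraries: without WT library 2 it was −0.16, with 28 of 30 below 0, and without IRE1KO library 4 it was −0.055. Without WT library 4 it was 0.24, with 28 of 30 above 0. No member passed the threshold in any of these fits.

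By role, 0 of 8 leukocyte genes passed, with a median log2 fold change of 0.16, and 0 of 8 tested receptors and adaptors, with a median of −0.020. Of the 12 lysosomal, complement and effector genes 0 passed, with a median of 0.091. Spi1 had 0.11 ± 0.425 and Acp5 0.023 ± 0.314, and neither passed.

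Once each library's own level of the set was a term in the fit, the genotypes could be compared more closely. The median standard error of the members fell from 0.377 to 0.103. Again 0 of 30 passed, beside 0.503% of all tested genes, with log2 fold changes from −0.31 to 0.55 around a median of 0.049. An unadjusted p below 0.05 was found for 5 of 30, beside 18.7% of all tested genes. They were Mrc1 at −0.31 ± 0.074 with adjusted p = 0.105, Lcp1 at 0.19 ± 0.062 with 0.176, Cd52 at 0.55 ± 0.191 with 0.193, Pld4 at 0.33 ± 0.122 with 0.213, and Ctss at 0.16 ± 0.067 with 0.260, all by edgeR. This fit asks whether a gene differs relative to the rest of the set, not whether the set differs, and it was added after the data had been seen.

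**Figure D4:**
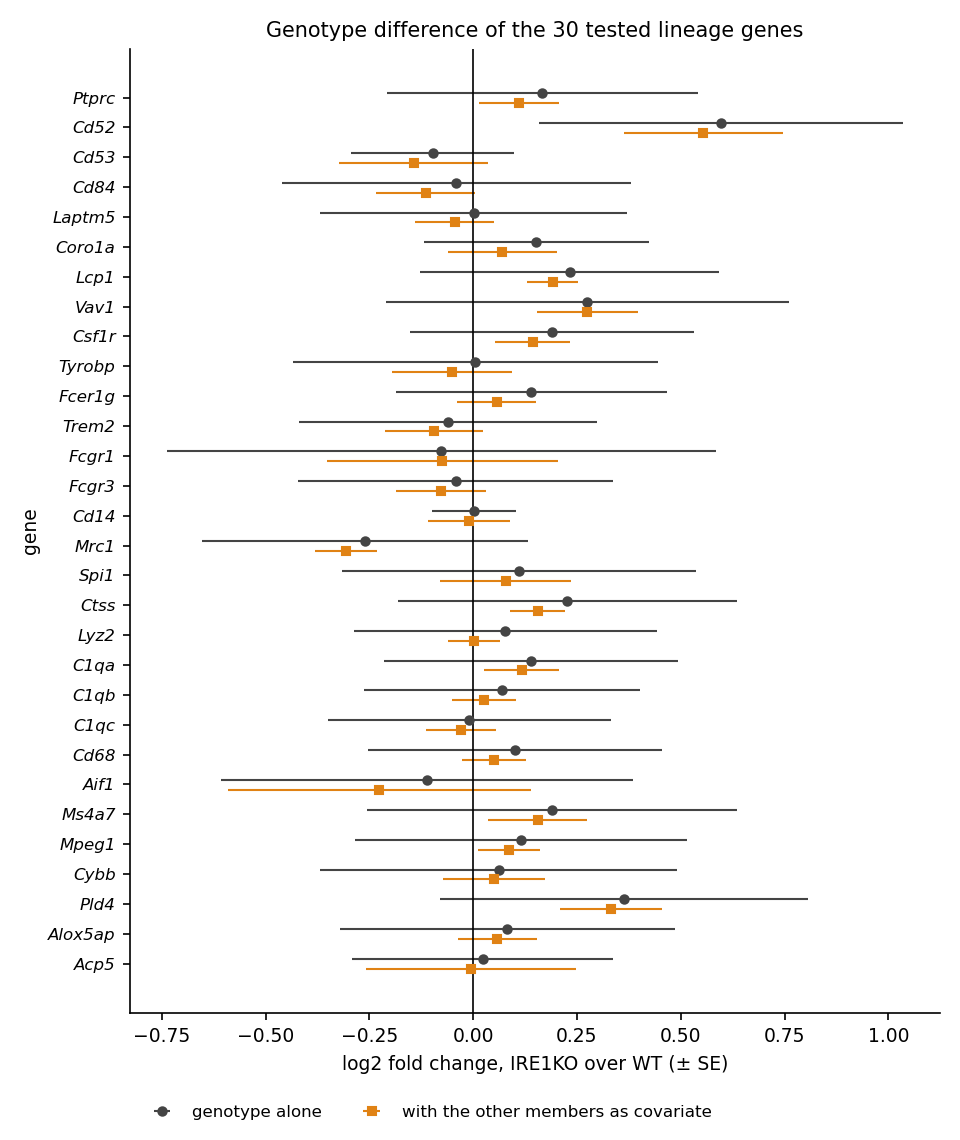
Log2 fold change of IRE1KO over WT (horizontal axis, ± SE) for each of the 30 tested members, from genotype alone (grey circles) and with the summed other members as covariate (orange squares). The grey bars are wide and nearly all cross 0, and the orange bars are shorter, with a median SE of 0.103 against 0.377.

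As a share of the lineage's counts, Mrc1 was the sole tested member of 30 whose groups did not overlap, beside 0.627% of all tested genes. That percentage is not a like rate for a member. Dividing a gene outside the set by the members' counts brings in their spread, 3.52-fold in summed CPM between libraries. In CPM, 6.6% of all tested genes did not overlap. Per 1000 counts of the tested members, Mrc1 made up 72.6, 70.1, 71.2, 70.9 and 73.7 in IRE1KO libraries 1 to 5 and 76.4, 79.0, 95.4 and 98.3 in WT libraries 1 to 4. All 5 IRE1KO shares lay below all 4 WT shares, with WT libraries 3 and 4 farthest from them and WT library 1 close to IRE1KO library 5. The share of Lyz2 was steadier, at 271.1, 263.8, 273.1, 285.4 and 251.6 in IRE1KO libraries 1 to 5 and 286.9, 268.9, 273.1 and 256.0 in WT libraries 1 to 4. Csf1r was also steady, at 65.2, 64.6, 70.4, 65.8 and 66.6 in IRE1KO libraries 1 to 5 and 70.3, 60.9, 64.2 and 50.9 in WT libraries 1 to 4, apart from a low value in WT library 4.

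Other genes of the same lineage followed the set in part. Of 40 further myeloid genes, 36 were tested, 0 passed in either direction, and their median log2 fold change was −0.021. Their summed level ran from 1090 to 1317 CPM in IRE1KO and from 1107 to 1410 CPM in WT, a narrower relative spread than the members'. Their Spearman coefficients with the summed members had a median of 0.817 and a lowest value of −0.48, and 18 of the 36 reached 0.9. Among those that did was Adgre1 (listed as Emr1), the macrophage marker F4/80, at 4.27 to 23.5 CPM. Grn and Arhgdib, the most abundant of this list, did not, and which cells their RNA came from was not tested. Cx3cr1, the fractalkine receptor, was at a mean of 5.47 ± 1.84 CPM (SD) over the 5 IRE1KO libraries and 3.47 ± 0.669 CPM over the 4 WT libraries with a log2 fold change of 0.68 ± 0.274 and adjusted p = 0.259 by edgeR. Tlr4, the lipopolysaccharide receptor, had −0.22 ± 0.0653 with adjusted p = 0.160 by edgeR. Ccr2, a receptor of blood monocytes, had 0 counts in every library.

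By contrast, further genes used by osteoclasts did not follow the set. Of 24, 22 were tested, and their median Spearman coefficient with the summed members was −0.017, with none at 0.9. The list summed to 1706 to 1772 CPM in IRE1KO and 1564 to 1851 CPM in WT. Which cells this RNA came from was not tested, so the coefficients do not describe osteoclasts as such. Tcirg1, a subunit of the proton pump that acidifies lysosomes and the resorption pit, rose in IRE1KO, with a mean of 88.8 ± 6.99 CPM (SD) over the 5 IRE1KO libraries and 67.1 ± 5.46 CPM over the 4 WT libraries, with a log2 fold change of 0.42 ± 0.0744 and adjusted p = 0.0475 by edgeR. Its Spearman coefficient with the summed members was 0.483. No gene of the supporting lists passed with library-size scaling alone, by limma voom, without the filter on low counts, or without any of IRE1KO libraries 1 to 5 or WT libraries 2 and 3, each left out in turn. The other 21 did not pass. Ctsk, encoding cathepsin K, was at a mean of 185.4 ± 15.4 CPM (SD) over the 5 IRE1KO libraries and 151.7 ± 36.7 CPM over the 4 WT libraries with adjusted p = 0.315 by edgeR and a Spearman coefficient of 0.433. Itgav and Fosl2, the most abundant of the list, had log2 fold changes of −0.13 ± 0.115 and 0.12 ± 0.102. Nfatc1, the master regulator of osteoclast formation, had 0.27 ± 0.101 with adjusted p = 0.233 by edgeR. Siglec15, a receptor of osteoclasts, had 0 counts throughout.

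Genes for the ligands of the lineage were measured in the same libraries. Csf1 was at a mean of 684.2 ± 46.5 CPM (SD) over the 5 IRE1KO libraries and 720.1 ± 237.9 CPM over the 4 WT libraries, with adjusted p = 0.930 by edgeR. Cxcl12, a chemokine of stromal cells, was at a mean of 221.4 ± 13.2 CPM (SD) over the 5 IRE1KO libraries and 290.0 ± 136.4 CPM over the 4 WT libraries. Tnfsf11 had a log2 fold change of 0.48 ± 0.119 with adjusted p = 0.110, and the chemokine gene Ccl7 0.68 ± 0.230 with adjusted p = 0.205, both by edgeR. Of the 10 genes in this list, which also held Tnfrsf11b, the gene for a decoy receptor of RANKL, 8 were tested and 0 passed. Their Spearman coefficient with the summed members had a median of 0.217.

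Lymphoid and neutrophil markers were at or near 0, and the lists for other blood cells held a few genes above that. Of 12 lymphoid markers 8 had 0 counts in every library, and the list summed to 0 to 26 counts a library. Of 10 neutrophil markers 5 were at 0, with sums of 3 to 17 counts. Among 12 dendritic cell markers 6 were at 0, including Flt3, Xcr1 and Clec9a; Zbtb46 and H2-Ab1 had log2 fold changes of 0.34 ± 0.151 and −0.38 ± 0.280 and did not pass. Of 10 mast cell and basophil markers 5 were at 0, and the sum was carried by Gata2, which other cells also express, with −0.63 ± 0.141 and adjusted p = 0.0801 by edgeR. Of 10 erythroid and megakaryocyte markers 6 were at 0, the listed globins among them, although near-identical globin copies could have lost reads in counting. Pf4 and Itga2b, of the megakaryocyte line, had mean levels of 2.59 and 4.31 CPM over the 9 libraries and did not pass.

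**Figure D5:**
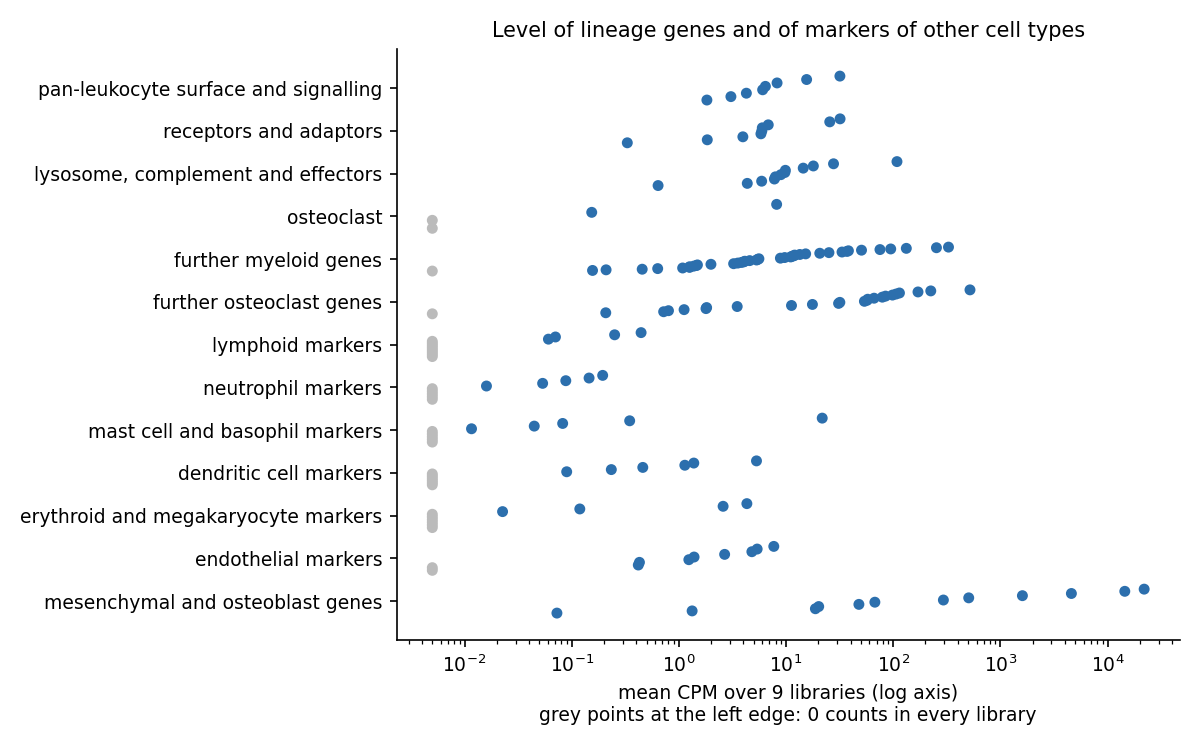
Mean CPM over the 9 libraries (log axis) for each gene of the member groups and of the lists for other cell types, with grey points at the left edge for genes with 0 counts in every library. Lymphoid and neutrophil markers lie below 1 CPM or at 0, most members lie between 1 and 100 CPM, and the mesenchymal genes Col1a1 and Col1a2 lie at the far right.

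Mesenchymal genes dominated. Col1a1, a chain of type I collagen, was at a mean of 23140 ± 1051 CPM (SD) over the 5 IRE1KO libraries and 20528 ± 7147 CPM over the 4 WT libraries, and Col1a2, its partner, at a mean of 15122 ± 681.3 CPM (SD) over the 5 IRE1KO libraries and 13717 ± 5299 CPM over the 4 WT libraries. The summed level of the 12 genes was 43131 to 47298 CPM in IRE1KO and 31454 to 61984 CPM in WT, with WT library 4 highest and WT library 2 lowest, and within IRE1KO, library 4 highest and library 3 lowest. Their median Spearman coefficient with the summed members was 0.383 and none reached 0.8. Of 11 tested, 0 passed. Ibsp, bone sialoprotein, had −2.06 ± 0.579 with adjusted p = 0.152, and Sparc, osteonectin, 0.25 ± 0.0792 with adjusted p = 0.186, both by edgeR. Among 7 tested endothelial genes, Pecam1, encoding CD31, had 6, 3, 1, 5 and 3 counts in IRE1KO libraries 1 to 5 and 11, 18, 12 and 15 counts in WT libraries 1 to 4. The IRE1KO counts lay around the floor of 3 counts, and the gene passed the low-count filter through the WT libraries. It was called lower in IRE1KO, at −1.99 ± 0.361 on the log2 scale with adjusted p = 0.0497 by edgeR, and the call was lost without the filter. Some macrophages also express it, and its Spearman coefficient with the summed members was 0.117. Tek and Flt1, an angiopoietin and a VEGF receptor, had −0.50 ± 0.362 and 0.87 ± 0.289 and did not pass.

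Outside the set, the 10 tested genes whose levels most resembled the members' mean pattern over the 9 libraries had Pearson's r of 0.983 to 0.997. Tlr13, an endosomal receptor for bacterial RNA, was first, at 2.14 to 9.17 CPM. It was followed by Rac2, Selplg, Lmo2, Pik3ap1, Wdfy4, Arhgap30, Dock2, Naip2 and Emr1. Tlr13 was at 7.32, 7.88, 3.78, 9.17 and 4.36 CPM in IRE1KO libraries 1 to 5 and 4.90, 2.14, 8.66 and 9.04 CPM in WT libraries 1 to 4. WT library 2 was lowest and the groups overlapped, as for the members. Of the 50 genes most alike, 14 were in the further myeloid list, which held 36 of the 13682 tested genes outside the set. That list too was chosen with earlier results of these data known.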

How the data were processed

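RNA of 9 libraries was compared, 5 labelled IRE1KO and 4 labelled WT, each a separate pool of pups per the labels' protocols, which also state a single preparation and sequencing batch. The authors deposited raw counts (integers, with no normalization, for each gene in each library). STAR, limma and mm10 are named per the submitters' processing notes, with no version or role; for the counting program, annotation release and strand setting, the version or choice is not given in the sources used here. Without a known strand setting, counts of Csf1r and Hmgxb3, of Coro1a and Bola2, and of other overlapping neighbours of Acp5, Alox5ap, Cd52 and Lcp1 could be shared, as could those of close relatives (Lyz2 with Lyz1, Fcgr3 with its family). The table had 0 rows that name no gene.

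Counts were tested in R 4.3.3 with edgeR 4.0.16 (filterByExpr, TMM, robust quasi-likelihood test, genotype as the sole term; Benjamini-Hochberg threshold 0.05), and by DESeq2 1.42.0 and limma 3.58.1 as alternatives. Values were summarised in Python 3.11.15 (pandas 2.3.3, SciPy 1.17.1, NumPy 2.4.6) and drawn in matplotlib 3.10.9. The members and lists were chosen with earlier results of these data known. Named genes were all members, Ern1, the 10 genes most alike in pattern and, of each supporting list, any that passed, the 2 most abundant tested genes and the 2 with the smallest p; Ctsk, Adgre1 and genes at 0 were named after their values were seen. Other scalings, no filter, a replicate block and leaving out each library were tried, and the covariate fits were added after the data had been seen. The fitting code was tested on simulated data. A floor of 3 counts and 95% Poisson intervals cover counting error only. Positions came from GENCODE M21 (GRCm38).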

Additional observations from a re-analysis of the deposited data

Results flagged for a closer look

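No member was singled out when each group's values were searched for a library far from the others. In 6 of 130 groups searched, a library stood apart, all in supporting lists; chance alone flags about 1 in 20. Tcirg1 was at 59.0 CPM in WT library 2, with the other WT libraries at 68.9 to 70.4 CPM. Fosl2 was at 162.0 CPM in WT library 4 and at 228.3 to 237.9 CPM in the other 3. Csf1 was at 603.9 CPM in IRE1KO library 2, against 691.5 to 716.8 CPM in the other 4. Cxcl12 reached 494.4 CPM in WT library 4, where the others had 211.5 to 230.3 CPM. Pf4 was at 1.49 CPM in IRE1KO library 3 and at 2.89 to 3.08 CPM in the other 4. Tek was at 8.64 CPM in IRE1KO library 2, with 5.38 to 6.30 CPM in the rest.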

How the results depend on the processing

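No member passed the threshold in the main fit or in any of the 17 alternatives run. The difference between the groups' mean log2 summed CPM of the members, scaled by library size, was 0.13 (0.15 with TMM factors) and ran from −0.25 to 0.34 with a library left out, the extremes being WT library 2 and WT library 3,, against a pooled SD of 0.644. Members' signs were not stable: without WT library 2, 20 of 30 differed in sign from the main fit, and without IRE1KO library 4, 13. The count over all tested genes was 87, and 46 with library size alone, 45 without the filter, 16 by limma voom and 582 by DESeq2; leaving out a library gave 2 to 1192, the lowest without IRE1KO library 2 and the highest without WT library 1, and 399 without WT library 4. The cause was not tested. The 2 calls in supporting lists became 0 with library size alone, by limma voom and without the filter, 6 by DESeq2, 1 with the summed members as covariate, and 0 to 8 with a library left out. Without WT libraries 2 and 4 together, a choice made after seeing the data, the members' median log2 fold change was −0.096.

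Whether replicate numbers pair the libraries was not settled. Correlations of same-numbered residuals ran from −0.20 to 0.47, and 4 of 8 libraries correlated best with their own number. These were the libraries numbered 1 (0.15) and 4 (0.47), while those numbered 2 and 3 were at −0.20 and −0.19. With the replicate block, in which the fifth IRE1KO library has no partner, 0 of all tested genes (1596 at an unadjusted p below 0.05), 0 supporting genes and 0 members passed, with 28 of 30 members above 0, a median of 0.26 and a difference in log2 summed CPM of 0.25.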
